A study of Homo sapiens with 20 samples.

Results

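The genes described here encode components of transforming growth factor beta (TGF-beta) signalling: the ligands TGFB1 and TGFB2, the receptors TGFBR1 and TGFBR2, the co-receptor CD109, and the intracellular mediators SMAD2, SMAD3, SMAD4, SMAD7 and SMAD9. They are 10 of 20163 protein-coding genes of GENCODE release 44 on the genome build GRCh37. They were chosen as members of the pathway with earlier results of these data known. A HIF1A peak was assigned to a gene when its centre lay between 10 kb upstream of the gene and 10 kb past its end. This gave 18 of the 26484 peaks in the 8 deposited lists.

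HIF1A chromatin binding was measured by ChIP-seq, in which DNA bound by a protein is recovered with an antibody and sequenced, in HCT116 and RKO colon carcinoma cells and in A549 and H460 lung carcinoma cells. All are established lines, and each was held in normoxia or in hypoxia at 1% oxygen for 24 h. The 20 samples were 16 ChIP libraries, a pair of replicates of every line in either condition, and 4 input libraries, 1 per line. Replicates had been merged before peaks were called, so the values below come without an error between replicates. Library totals after merging were between 41.2 and 81.5 M tags (1 M is 1000000) and lists held between 287 and 9171 peaks. The fold over input required for a call was 7 for HCT116, 6 for RKO, 13 for A549 and 14 for H460. The signal given throughout is the normalized tag count, the tags in a peak per 10 M tags in the library, with an exact Poisson 95% interval that covers counting error only.

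TGF-beta ligands bind the type II receptor, which phosphorylates the type I receptor, which in turn phosphorylates the receptor-regulated SMADs. These join SMAD4, enter the nucleus and act on target genes, while inhibitory SMADs such as SMAD7 close a negative feedback loop. HIF1A is the oxygen-regulated subunit of the transcription factor that binds hypoxia response elements, whose core reads ACGTG or GCGTG on either strand.

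Hypoxia peaks were found in the windows of 7 of the 10 genes, TGFB1, TGFB2, TGFBR1, CD109, SMAD3, SMAD9 and SMAD7, and 51.8% of all protein-coding genes had such a peak in some line. Normoxia peaks were found at TGFB1, TGFB2, TGFBR2 and SMAD3, 4 of 10 genes, against 13.1% of all genes. TGFBR2 had a normoxia peak only, and SMAD2 and SMAD4 had no peak in any of the 8 lists. At a fold of at least 6 over the surrounding region, above the 3 used for the calls, 4 genes kept a hypoxia peak and 2 a normoxia peak, and without A549 the normoxia count was 2. None of the 18 peaks overlapped a peak of another list, so no site within the windows was called in both conditions of a line or in more than 1 line.

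The sequences of the hypoxia peaks that held the core are shown because they carry the shared feature of these sites. All are on the + strand of GRCh37, written 5′ to 3′, in lower case with the core in capitals, so that a core on the - strand appears as CACGT or CACGC. Whole peaks are printed except for those touching an untranslated region (UTR), of which 30 bases around the core nearest the peak centre are printed.
CD109, H460, chr6:74405347-74405493: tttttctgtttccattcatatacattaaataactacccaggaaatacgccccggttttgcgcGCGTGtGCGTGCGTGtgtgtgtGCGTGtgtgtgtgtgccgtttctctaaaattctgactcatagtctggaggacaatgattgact
TGFBR1, HCT116, chr9:101867713-101867861: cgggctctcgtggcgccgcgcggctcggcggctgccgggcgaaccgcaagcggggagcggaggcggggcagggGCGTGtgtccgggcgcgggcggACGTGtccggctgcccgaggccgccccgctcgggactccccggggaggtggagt
SMAD7, RKO, chr18:46478483-46478643: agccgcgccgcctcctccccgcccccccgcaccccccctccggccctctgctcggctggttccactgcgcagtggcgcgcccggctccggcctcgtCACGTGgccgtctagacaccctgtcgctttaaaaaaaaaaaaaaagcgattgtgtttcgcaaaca
SMAD3, A549, chr15:67402158-67402298: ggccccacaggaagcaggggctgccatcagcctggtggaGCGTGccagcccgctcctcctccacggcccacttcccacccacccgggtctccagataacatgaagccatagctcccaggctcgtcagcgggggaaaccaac
SMAD3, A549, chr15:67471062-67471202: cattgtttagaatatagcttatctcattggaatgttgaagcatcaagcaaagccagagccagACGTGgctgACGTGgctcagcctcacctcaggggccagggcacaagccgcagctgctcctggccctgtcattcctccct
SMAD3, HCT116, chr15:67458384-67458413: cattctaatttggACGTGacgttcatcctg
SMAD3, RKO, chr15:67420442-67420471: aagccttggccagACGTGgatatggttatg
TGFB2, A549, chr1:218519382-218519411: cccagcgcgcgcaCACGCacacacacacac
TGFB1, A549, chr19:41869739-41869768: ccgccttccgcgtCACGCcagccaccccgc

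The ligand genes TGFB1 and TGFB2 had hypoxia peaks in A549 only among the 4 lines. The TGFB1 peak (chr19:41869672-41869812) had a normalized tag count of 15.0 (95% interval 11.72 to 18.99, 70 tags) and stood at percentile 89.9 of its list. Its centre lay 9915 bp upstream of the 5′ end of TGFB1, near the edge of the window, and 93 bp from a transcript start of B9D2, within the UTR of overlapping genes there. It was thus assigned to TGFB1 by distance alone, and a window limited to the gene body left it out.

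Normoxia peaks lay inside TGFB1 instead, in introns, in RKO with a normalized tag count of 3.77 (2.196 to 6.036) and in A549 with 4.61 (2.774 to 7.194). Both were weak, resting on 17 and 19 ChIP tags and 1 input tag each. They were 2895 and 16905 bp from the nearest transcript start of the gene, and the RKO site held 2 cores while the A549 site held none.

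At TGFB2 the stronger A549 hypoxia peak (chr1:218519328-218519468) had a normalized tag count of 7.30 (5.056 to 10.2, 34 tags) and stood at percentile 76.4 of its list. It lay at the promoter, 179 bp upstream of one transcript start, 720 bp inside the 5′ end of the gene and 20 bp from the start of the antisense transcript TGFB2-AS1. Its central 200 bp held 5 cores, of which the one printed above borders a CA repeat. The weaker A549 peak, in the last part of the gene at 94.74 kb from the 5′ end, had 3.65 (2.127 to 5.845) and no core. The only other TGFB2 peak was a normoxia peak in H460, intronic and without a core, with 3.38 (2.002 to 5.338). That peak had no input tag, as did 98.8% of the peaks of its list, so its fold over input rests on the value of 0.5 that stands in for 0 input tags.

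Among the receptors, TGFBR1, the type I receptor kinase, was called in hypoxia in both a colon and a lung line, at opposite ends of the gene. The HCT116 peak (chr9:101867713-101867861) had a normalized tag count of 4.42 (3.093 to 6.113, 36 tags) and lay in an intron 1467 bp from the 5′ end and 355 bp downstream of another transcript start. Its 149 bp, printed above, were 81.88% G or C with 26 CpG dinucleotides and 2 cores. The H460 peak (chr9:101917850-101917996) lay 1449 bp past the 3′ end, was 29.93% G or C with 1 CpG and no core, and had 3.64 (2.157 to 5.752, 18 tags), at percentile 11.3 of its list.

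TGFBR2, the type II receptor that starts the cascade, had no hypoxia peak in its window in any line. The nearest hypoxia peak to its 5′ end was 24.35 kb away in A549, 140.8 kb in RKO, 324.2 kb in HCT116 and 912.5 kb in H460. Its single peak was called in A549 normoxia, 9157 bp upstream in intergenic sequence without a core, with 4.85 (2.962 to 7.49, 20 tags).

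CD109, a membrane-anchored co-receptor that dampens TGF-beta signalling, had its only peak at the promoter, in H460. The H460 hypoxia peak (chr6:74405347-74405493) had 15.6 (12.29 to 19.46), from 77 ChIP tags against 1 input tag, and ranked 707 of 3877 in its list (percentile 81.6). The interval overlapped that of the TGFB1 peak in A549, which stood higher within its own list. It lay 88 bp upstream of the 5′ end of CD109, inside an intron of the antisense gene CD109-AS1, and held 4 copies of GCGTG within a stretch rich in GT repeats. The fold over input was 45.67, with an interval of 7.996 to 1836 because of the single input tag, and the fold over the surrounding region was 18.7. No peak was called in the CD109 window in the other 3 lines, where the nearest hypoxia peaks were 34.63 kb away in A549, 41.79 kb in HCT116 and 102.4 kb in RKO.

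SMAD3, a receptor-regulated SMAD of the TGF-beta and activin branch, had more peaks than any other of the 10 genes, with 4 hypoxia peaks in 3 lines and 1 normoxia peak. No hypoxia peak was near its 5′ end: they lay 46.13, 64.38, 102.3 and 115 kb into a gene of 131.4 kb that has 18 annotated transcripts with as many different starts. All 4 held the core.

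In A549 the stronger SMAD3 hypoxia peak (chr15:67402158-67402298) had a normalized tag count of 10.7 (7.969 to 14.15, 50 tags, percentile 84.8), in an intron 11211 bp from any SMAD3 start. The second (chr15:67471062-67471202) had 8.16 (5.774 to 11.2, 38 tags), 2086 bp upstream of the start of a non-coding SMAD3 transcript, with 2 copies of ACGTG separated by 4 bases. In the colon lines the SMAD3 peaks sat on alternative starts of protein-coding transcripts. Their normalized tag counts were lower than in A549, at different sites. Over sites called in all 4 lines, the median log2 difference was -0.79 for HCT116 minus A549 and -1.14 for RKO minus A549. How far this carries over to the SMAD3 peaks was not tested.

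The HCT116 peak (chr15:67458301-67458449) had 2.82 (1.788 to 4.233, 23 tags), 18 bp from such a start, and the RKO peak (chr15:67420398-67420558) had 2.99 (1.826 to 4.617, 20 tags), 37 bp from another. They stood at percentiles 36.5 and 27.9 of their lists. H460 had no SMAD3 peak, and its nearest hypoxia peak was 990.4 kb from the 5′ end. The A549 normoxia peak lay 2207 bp past the 3′ end of SMAD3, had no core, and had 7.03 (4.709 to 10.1, 29 tags), the highest of the 5 normoxia values.

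SMAD9, which carries signals of the bone morphogenetic protein branch, had 1 intronic RKO hypoxia peak of 2.99, 6815 bp from the nearest start and without a core. SMAD2, the partner of SMAD3, and SMAD4, the common mediator of both branches, were without a peak. The hypoxia peak nearest to the 5′ end of SMAD2 was 72.78 kb away in H460 and between 524.9 and 744.4 kb away in the other 3 lines. For SMAD4 the nearest was 51.02 kb away in HCT116, and the others were between 334.3 and 1190 kb away.

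SMAD7, the inhibitory SMAD that is itself induced by TGF-beta, had 2 hypoxia peaks in RKO only. The stronger (chr18:46478483-46478643) had a normalized tag count of 3.44 (2.179 to 5.159, 23 tags, percentile 67.0) and lay 1228 bp upstream of the 5′ end. It held CACGTG, a palindrome that contains the core on each strand and was counted 2 times. The weaker, in an intron 1868 bp from the nearest start, had 2.54 (1.48 to 4.069, 17 tags) and no core, and stood at percentile 3.1 of its list.

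**Figure D1:**
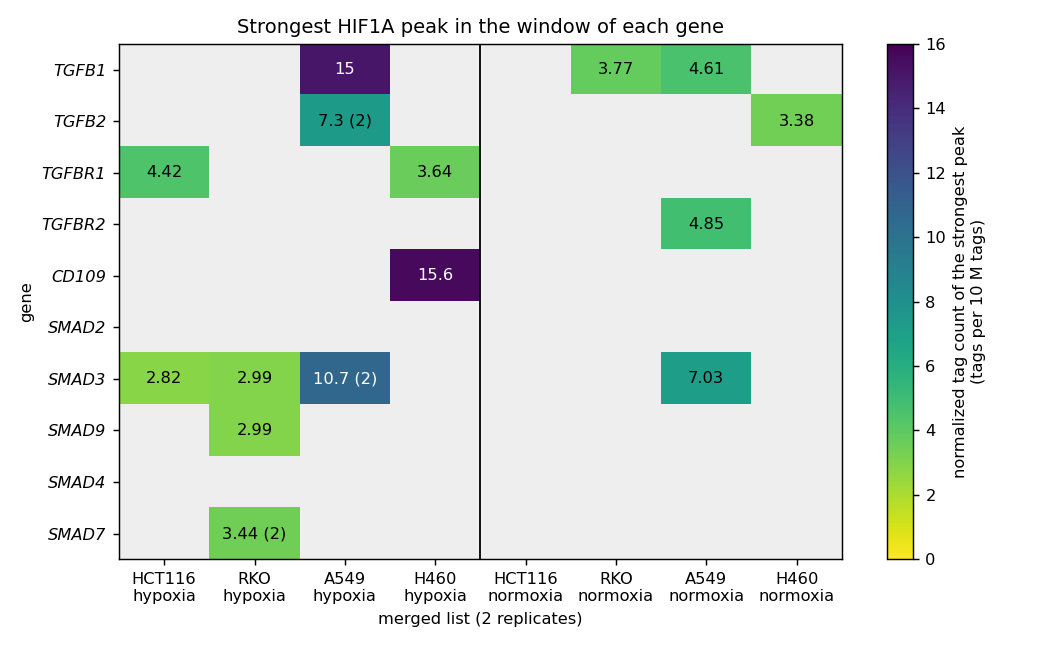
Normalized tag count (tags per 10 M tags) of the strongest peak in the window of each gene (rows) in each merged list (columns), with the number of peaks in parentheses where it exceeds 1 and grey where none was called. CD109 in H460 hypoxia (15.6) and TGFB1 in A549 hypoxia (15.0) carry the largest numbers, which come from libraries of different overall signal, and the SMAD2 and SMAD4 rows are empty.

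**Figure D2:**
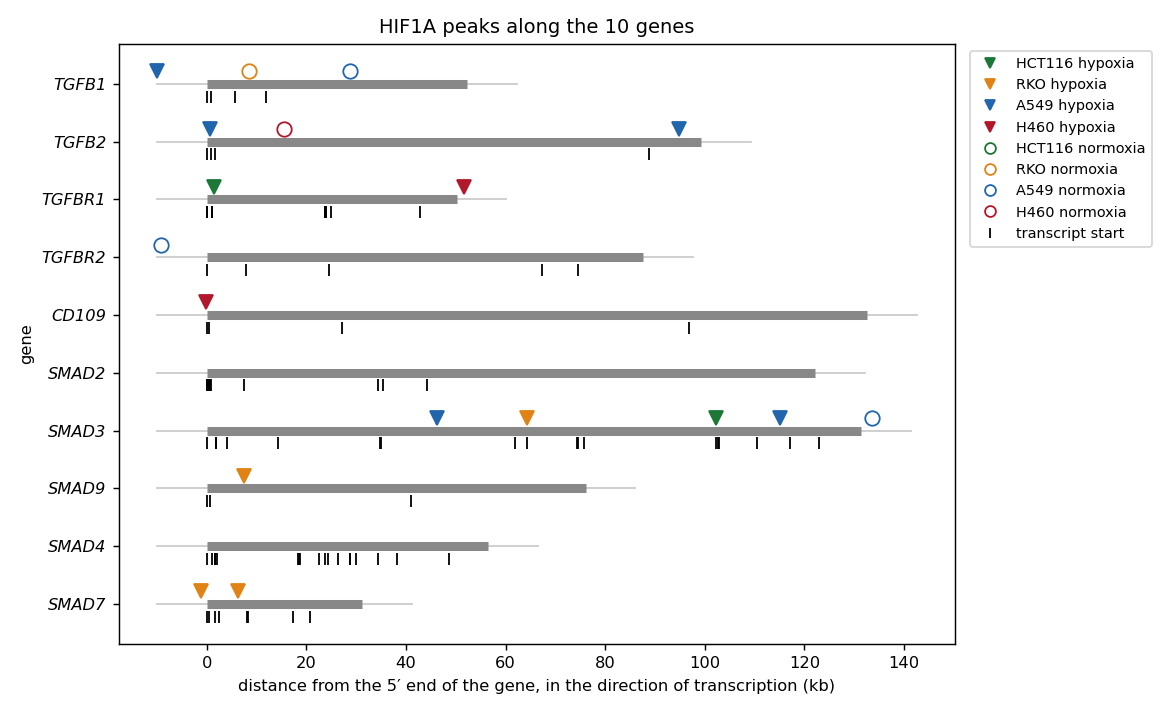
Position of the 18 peaks along the 10 genes, as the distance in kb from the 5′ end in the direction of transcription, with gene bodies as thick bars, windows as thin lines, transcript starts as ticks, hypoxia peaks as filled triangles and normoxia peaks as open circles, coloured by line. The 4 SMAD3 hypoxia peaks lie 46.13 to 115 kb into the gene, and no open circle lies within 2500 bp of a tick.

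It was next asked how the peaks were placed relative to transcript starts and cores in the 2 conditions. Of the 13 hypoxia peaks, 8 lay within 2500 bp of a transcript start of the gene, 9 held a core in their central 200 bp, and 7 did both. Only 4 of these 8 were within 2500 bp of the gene's 5′ end, those at TGFB2, TGFBR1, CD109 and SMAD7, and the rest were at internal starts. Of the 5 normoxia peaks, none lay within 2500 bp of a start and 1 held a core. Without RKO 5 of 9 hypoxia peaks were near a start, and without A549 5 of 8 held a core.

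For comparison, flanking windows, as long as the central one and 2000 bp away on each side, held a core in 7 of 26 cases for the hypoxia peaks, and in 1 of 10 for the normoxia peaks. Over whole lists the core was present in 65.1% of HCT116, 30.5% of RKO, 52.4% of A549 and 76.9% of H460 hypoxia peaks, and in 35.9%, 17.7%, 42.4% and 15.1% of the normoxia peaks in the same order. A start of any protein-coding or lncRNA transcript lay within 2500 bp of 57.6%, 28.6%, 39.4% and 60.0% of the hypoxia peaks, and of 24.0%, 20.1%, 33.7% and 16.9% of the normoxia peaks. Counted the same way, with the start of B9D2 beside the TGFB1 peak included, 9 of the 13 hypoxia peaks and 0 of the 5 normoxia peaks of the 10 genes lay near a start. With 13 and 5 peaks spread over different lists, the difference between conditions was not tested.

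Set against their own lists, the 13 hypoxia peaks ran from percentile 3.1 (SMAD7 in RKO) to percentile 89.9 (TGFB1 in A549), and none reached the strongest end. Normalized tag counts ran from 2.54 to 15.6, with 7 peaks above the median of their list and 5 in its top quartile, and a median percentile of 66.98. The 5 in the top quartile were CD109 in H460 and the TGFB1, TGFB2 and SMAD3 peaks in A549, of which SMAD3 had 2. Of the 4 RKO peaks, the 1 at the SMAD7 promoter was above the list median of 3.29. The 5 normoxia peaks ran from 3.38 to 7.03, and all were at or above the median of their list.

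**Figure D3:**
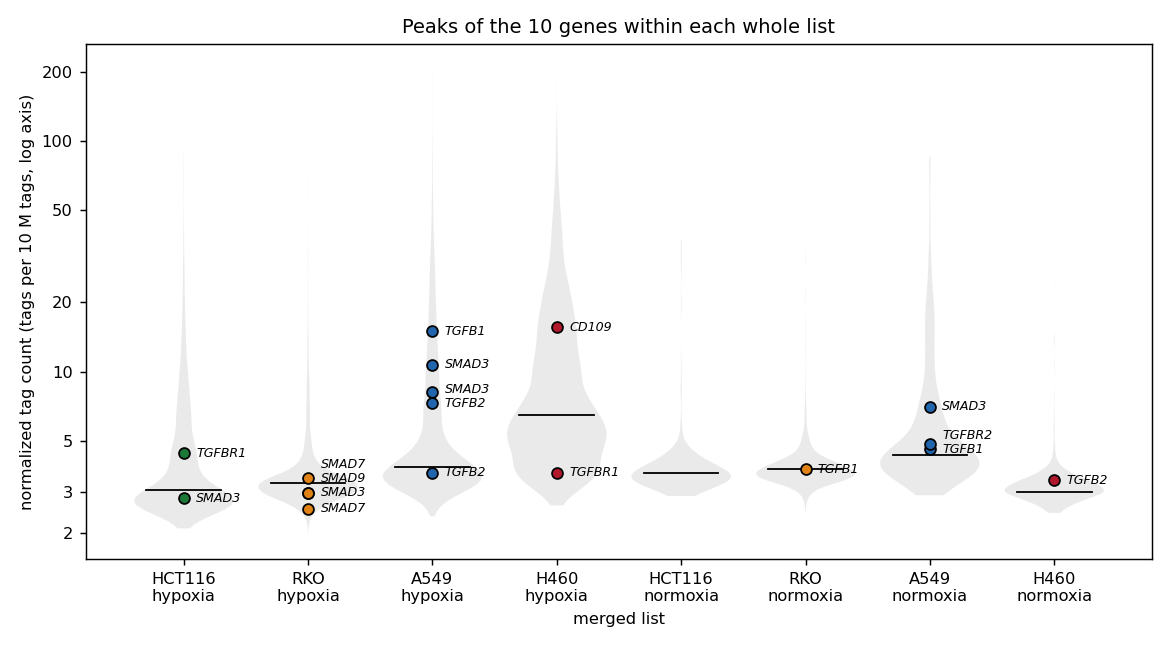
Normalized tag counts (tags per 10 M tags, log axis) of the 18 peaks as labelled points over the distribution of all peaks in each merged list, with the list median as a bar. The 2 highest points are CD109 in H460 (15.6) and TGFB1 in A549 (15.0), while in RKO hypoxia the points lie between 2.54 and 3.44.

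Because no peak of the 10 genes was called in both conditions of its line, hypoxia and normoxia could not be compared by a test at the same site. Absence of a call was therefore read against what a site of equal normalized level would have given in the other library. The requirements were the fold over input and the tag threshold that peak calling set for the list. The fold over the surrounding region, also required for a call, was left out, so meeting both requirements does not ensure a call. The levels were those of called peaks, a selection that can favour high values. Called peaks could hold fewer tags than that threshold, as few as 11 in RKO normoxia, where it was 16. At the CD109 site an equal level in H460 normoxia would have given 83 tags, or 65.48 at the lower bound, where 26 were needed. At the stronger SMAD3 site in A549 it would have given 44 tags, or 32.87 at the lower bound, where 16 were needed.

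These were the 2 of 13 hypoxia peaks for which a site as strong in normoxia would have met both requirements even at the lower bound, and 7 did so at the point value. For the other 11, among them every RKO and HCT116 peak, the lower bound fell short, so a normoxia level equal to that in hypoxia was not detectable as a call with certainty at this depth. For the 5 normoxia peaks, 4 would have met the requirements in hypoxia at the point value and none at the lower bound.

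**Figure D4:**
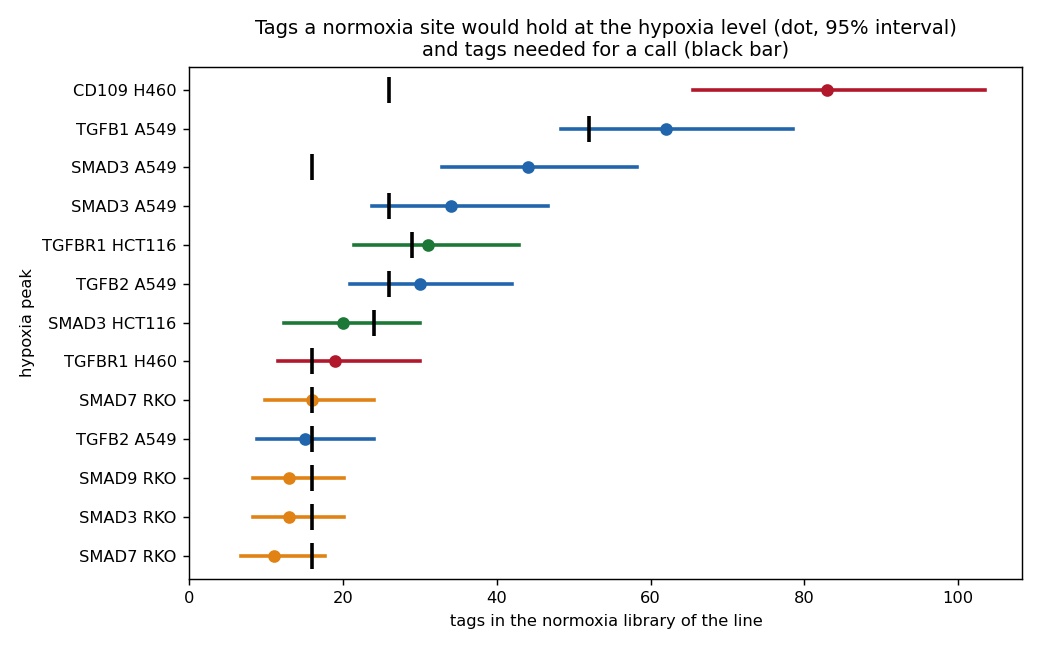
For each of the 13 hypoxia peaks, the tags expected in the normoxia library of the line at an equal normalized level (dot, with the 95% counting interval as a line) and the tags required there by the fold over input and the tag threshold (black bar). For CD109 in H460 and the stronger SMAD3 peak in A549 the whole interval lies above the bar, at 65.48 or more against 26 and 32.87 or more against 16.

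Line by line, the number of the 10 genes with a hypoxia peak was close to the share of all protein-coding genes with a peak in the same kind of window. HCT116 had 2 (19.9% of all genes), RKO 3 (28.3%), A549 3 (21.5%) and H460 2 (18.4%). The normoxia counts were 0 for HCT116 (1.29% of all genes), 1 for RKO (6.93%), 3 for A549 (2.76%) and 1 for H460 (3.81%). The A549 normoxia count, from TGFB1, TGFBR2 and SMAD3, was the one farthest above the share of all genes, and it rests on 3 peaks of 19 to 29 tags. The hypoxia counts depended on the settings. In the order HCT116, RKO, A549 and H460, they were 2, 3, 2 and 0 within gene bodies alone. They were 0, 1, 3 and 2 at a fold over input of at least 14, and 5, 5, 7 and 4 within 50 kb. The share of all genes under these settings was not computed.

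Long windows hold more peaks, and these genes are long. Of the 10 windows, 6 fell in the longest quartile of all protein-coding genes (91.34 kb or more) and 4 in the next. In those quartiles 70.7% and 53.4% of genes had a hypoxia peak in some line, and 24.1% and 11.5% had a normoxia peak. Per Mb of window, A549 hypoxia gave 4.81 peaks at the 10 genes against 1.89 over the genome, while the other hypoxia lists gave 1.92 against 1.4 (HCT116), 3.85 against 3.21 (RKO) and 1.92 against 1.36 (H460). The genome value includes sequence far from genes, so it does not stand for other gene windows. The A549 value rests on 5 peaks, among them the TGFB1 peak beside the B9D2 start.

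Across lines, no hypoxia site within the windows was called in 2 lines, so there was no site at which lines could be compared by a test. A gene called in several lines was called at different places, TGFBR1 in HCT116 and H460 and SMAD3 in HCT116, RKO and A549. By the mean absolute difference of log2 strongest normalized tag counts over the 4 lists in which SMAD3 had a peak, the genes most like SMAD3 among 38 with the same pattern of calls were RAB34, RPL23A and TLCD1, each at 0.256. Their windows overlap and share the same peaks, so they stand for 1 locus.

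The wider pathway was read from a list of 47 further genes. A hypoxia peak in some line was present at 30 of 47 (51.8% of all genes) and a normoxia peak at 10 of 47 (13.1% of all genes). By role these were 5 of 9 ligands, 4 of 9 latency and ligand-binding proteins, 7 of 13 receptors and co-receptors, 2 of 3 other SMADs, 6 of 7 SMAD regulators and 6 of 6 SMAD target genes. A hypoxia peak in at least 3 lines was present at 6 of 47, against 9.76% of all protein-coding genes, and at 1 of the 10 genes, SMAD3. Of the 6, 4 were SMAD target genes, among them ID1, ID2 and JUNB.

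Of all 47, JUNB alone had a hypoxia peak in all 4 lines, against 3.26% of all genes. No single JUNB site was called in all 4. The only RKO peak lay 8878 bp from the nearest JUNB start and overlapped a peak of HCT116 and a peak of H460. The A549 peaks, elsewhere, lay 4787 and 2455 bp away, where the first overlapped an H460 peak and the second an HCT116 peak. INHA, an inhibin subunit, and SMURF1, a ubiquitin ligase that works with SMAD7, had a hypoxia peak in 3 lines. By line, the hypoxia list of HCT116 covered 15 of the 47 (31.9%, against 19.9% of all genes), that of RKO 17 (36.2% against 28.3%), that of A549 10 (21.3% against 21.5%) and that of H460 9 (19.1% against 18.4%). In normoxia the counts were 1 for HCT116 (2.13% against 1.29%), 5 for RKO (10.6% against 6.93%), 5 for A549 (10.6% against 2.76%) and 1 for H460 (2.13% against 3.81%).

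Unlike the 10 genes, JUNB and SMURF2 had a site called in both conditions of a line. JUNB, a transcription factor of the AP-1 family, had 17.2 in A549 hypoxia and 3.88 in normoxia, a log2 difference of 2.15 (exact conditional binomial test on tags with Benjamini-Hochberg adjustment, adjusted p = 2.48e-09). The JUNB site lay 4787 bp from the nearest JUNB start. It was higher in hypoxia, as were 73.3% of the 176 A549 sites called in both conditions, with 1.14% lower.

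SMURF2, a ubiquitin ligase of the same family as SMURF1, had 4.63 and 3.77 in RKO, a log2 difference of 0.30 that did not pass (the same exact test, adjusted p = 0.896). In RKO 14.3% of 98 such sites were higher and 0% were lower. These tests compare merged libraries and not the conditions, since replicates could not be separated.

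**Figure D5:**
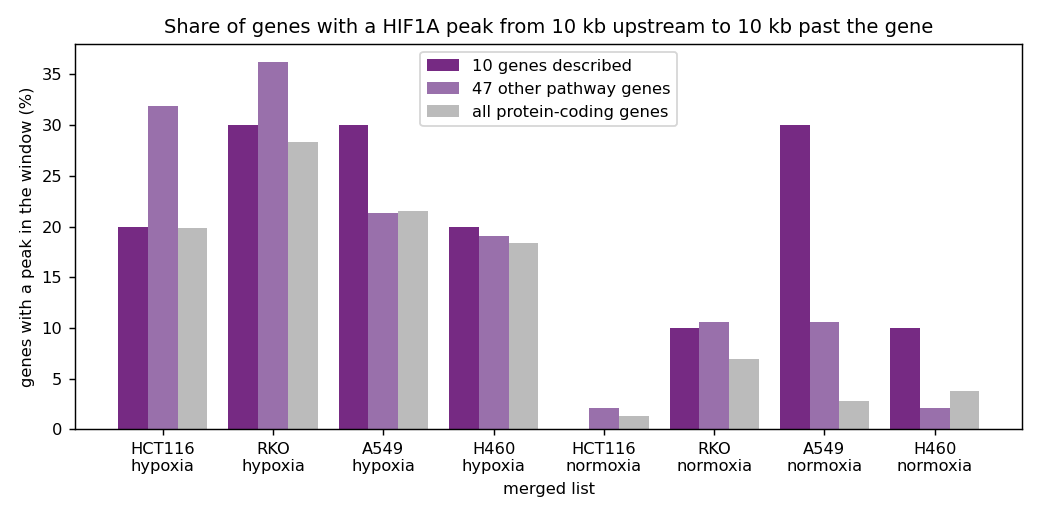
Percent of genes with a peak in the window, in each merged list, for the 10 genes, the 47 other pathway genes and all protein-coding genes. In hypoxia the 10 genes stand at 2 or 3 of 10 beside 18.4% to 28.3% of all genes, and in A549 normoxia at 3 of 10 beside 2.76%.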

How the data were processed

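HIF1A ChIP-seq was analysed from 8 peak lists, 1 for each line and condition. According to the submitters' processing notes and the file headers, the authors aligned reads with Bowtie2 2.2.9 to GRCh37, filtered them with SAMtools 1.3.1 and Picard 1.129, merged replicates 1 and 2 and called peaks with HOMER 4.3 against the input of the line. Per the file headers, the deposited signal is the normalized tag count, the tags of a peak per 10 M tags. The deposited ratio columns hold the fold over input and the fold over the surrounding 10000 bp, which had to exceed 3. The descriptions of the RKO and A549 inputs name each other's line, while titles, cell line fields and headers agree, so the titles were followed; had the inputs been crossed, the folds of those lines would be affected.

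The deposited ChIP and input tags were scaled by the authors to the smaller library and rounded, so they were treated as scores and not as counts. Unscaled tags were computed from the normalized tag count and the library total of the header. Transcript starts, genes and UTRs came from GENCODE release 44 mapped to GRCh37. All 10 genes and each of their peaks that was shared, within 2500 bp of a start or the strongest in its list were named, and of the 47 pathway genes those with a peak called in both conditions or in at least 3 hypoxia lists, except 1 gene that is counted but not reported here by name. The genes, lists and windows were chosen with earlier results of these data known. Sites called in both conditions, or in a pair of lines, were tested over the whole list with an exact conditional binomial test on tags, two-sided, with Benjamini-Hochberg adjustment at 0.05; an overlap of 1 bp counted as shared. The test was run on simulated data first. Neither test had a site within the windows of the 10 genes. The alternatives were other windows, thresholds, definitions of a start and overlaps. Python 3.11.15, SciPy 1.17.1, pandas 2.3.3 and pysam 0.24.0 were used.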

Additional observations from a re-analysis of the deposited data

Results flagged for a closer look

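The median distance from the 5′ ends of the 10 genes to the nearest hypoxia peak was 238.2 kb in H460, against 76.65 kb in HCT116, 73.15 kb in RKO and 46.73 kb in A549, and H460 stood apart from the other 3 lines by Dixon's criterion for 4 values. Over all protein-coding genes the median was 156.8 kb in H460, 145.7 kb in HCT116, 82.25 kb in RKO and 121.7 kb in A549. The criterion was applied to 10 measures, and chance alone marks about 5% of such groups. H460 also had the fewest hypoxia peaks (3877), and the part of that in the distance was not tested.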

How the results depend on the processing

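No paired analysis was possible because each list pools its 2 replicates, and for the same reason no replicate could be left out. Of 119 values recomputed, 87 were marked as unchanged and 32 as moved. For counts, unchanged meant within 1.5 times the reported value, and many of these were 0 under both settings. The log2 differences between conditions at the pathway sites were judged by sign and test result instead. That of SMURF2 in RKO was marked unchanged although it went from 0.2976 to 0.06475 per bp of peak width. Counts cannot change sign, so only these log2 differences could have reversed, and none did. The 4 genes with a normoxia peak became 2 when peaks had to lie in the gene body, 2 at a local fold of at least 6, and 2 without A549, and the 7 genes with a hypoxia peak became 4 at a local fold of at least 6. The 8 of 13 hypoxia peaks near a transcript start became 4 of 8 at a fold over input of at least 14 and 3 of 5 at a local fold of at least 6. They became 4 of 13 when only the 5′ end of the gene counted, 5 of 13 within 1000 bp and 5 of 9 without RKO. The 9 of 13 hypoxia peaks with a core became 22 of 32 in a window of 50 kb, 5 of 5 at a local fold of at least 6 and 5 of 8 without A549. The 0 peaks that could be compared between lines became 7 at 50 kb. These were the peaks at the sites upstream of SMAD7 and TGFB1 described below. The cause of the other changes was not tested. Leaving out a line was chosen after seeing the data. A call rests on as few as 11 tags, which limits weak sites.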

Other observations

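Beyond the windows of 10 kb, and chosen after the values were seen, SMAD7 had an upstream site that was called in hypoxia in all 4 lines. It lay 47.33 to 47.39 kb upstream of the 5′ end, outside any annotated gene, and no normoxia list called it. The nearest transcript start, at least 14751 bp away, was that of another gene, ENSG00000280335. The site was thus assigned to SMAD7 by the wider window alone. That window held 32 hypoxia peaks of the chosen genes, against 13 in the windows of 10 kb. The share of all genes with a site called in all 4 lines in the wider window was not computed. The normalized tag count was 4.29 (95% interval 2.99 to 5.971) in HCT116, 4.33 (2.903 to 6.226) in RKO, 7.95 (5.594 to 10.95) in A549 and 6.07 (4.093 to 8.659) in H460. In the same order, the peaks stood at percentiles 69.97, 87.9, 78.49 and 45.5 of their lists. The H460 value was below its list median of 6.47. The intervals of all 4 lines overlapped each other, those of HCT116 and A549 only between 5.594 and 5.971. Overlap does not show that the lines were alike, and no test result between lines is given for this site. The site thus differed from the peaks inside the windows, none of which was called in a second line. The H460 peak is printed on the + strand of GRCh37, with GCGTG in capitals, since all 4 peaks hold this copy.
SMAD7 upstream site, H460, chr18:46524640-46524786: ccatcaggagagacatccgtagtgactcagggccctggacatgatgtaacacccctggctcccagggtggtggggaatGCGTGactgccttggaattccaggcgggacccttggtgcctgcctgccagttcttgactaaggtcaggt

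The TGFB1 side of the same wider search gave a site 43.84 to 43.89 kb upstream, at the start of BCKDHA, a branched-chain keto acid dehydrogenase subunit, with normalized tag counts of 7.36 in HCT116, 8.97 in RKO and 19.8 in A549. It was 2 to 43 bp from a BCKDHA start and held ACGTG in all 3 lines.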
